A study of Mus musculus with 65 samples.

Results

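The 9 subunit genes of the BAF chromatin remodelling complex followed here in single cells of the mouse embryonic cortex are Actl6a, Actl6b, Phf10, Dpf1, Dpf3, Smarca2, Smarca4, Smarcc1 and Smarcc2. They were chosen by name, though with earlier results of these data known. Of the 9, 8 have a row among the 11971 genes of the count table, and Dpf3 was not analysed here. All 65 cells come from C57BL/6J embryos at E13.5, with the cortex freed of the ganglionic eminences, the embryos pooled, and cells that excluded propidium iodide sorted singly. No allele, treatment or second group exists, and the animals behind each cell are not named. Cells are therefore no replicates, so no test was possible and every difference below is a description of these cells, with the SD across cells or a counting interval as its error.

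BAF complexes, relatives of the yeast SWI/SNF remodeller, use the ATPase Smarca4 or Smarca2 to move nucleosomes. In mouse brain development the complex exchanges subunits as progenitors leave the cell cycle: the actin-related protein Actl6a gives way to Actl6b, and the PHD finger protein Phf10 gives way to Dpf1 and Dpf3. Smarca4 and Smarca2, and the scaffold subunits Smarcc1 and Smarcc2, are paralog pairs that are not strictly tied to a stage. Here Actl6a, Phf10, Smarca4 and Smarcc1 are called progenitor-type members and Actl6b, Dpf1, Smarca2 and Smarcc2 neuronal-type members, a division that is sharpest for the Actl6 and Phf10/Dpf genes.

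The exchange of Actl6a for Actl6b is known to involve microRNAs that repress Actl6a in neurons, miR-9-3p (also written miR-9*) and miR-124, and the repressor Rest, which keeps those microRNAs and many neuronal genes silent in non-neuronal cells. The first is shown with its seed (bases 2 to 8) in capitals, together with the stretch of the Actl6a 3′ UTR that holds the complement of that seed, AGCTTTA, in capitals. Of miR-9-3p, only a host transcript was counted here. The microRNA is credited to RefSeq (GRCm38.p6, the Mir9-2 copy at chr13:83738858-83738879, plus strand) and the site to GENCODE M21 transcripts (GRCm38, chr3:32726625-32726654, plus strand, in the 3′ UTR).
miR-9-3p: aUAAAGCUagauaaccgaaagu
Actl6a site: cacctcaacgtctgtAGCTTTAgtacactc
The Actl6a 3′ UTR, 371 bases long, holds this 7-base match 1 time. Among 15539 genes, the first 371 bases of the 3′ UTR held it in 2.84%. Smarca2 has 1 match and Smarcc1 has 2 in their longer 3′ UTRs of 952 and 2396 bases, and the Actl6b 3′ UTR (196 bases) has 0. A match describes letters, not a site in use.

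The promoters of the Actl6 pair are shown because these paralogs differ most in how many cells carried them. Each window runs from 250 bases before to 50 after the RefSeq start (GRCm38.p6), 5′ to 3′ on the plus strand, Actl6a at chr3:32708296-32708595 and Actl6b at chr5:137553296-137553595. Capitals mark the E-box CANNTG, which reads the same on both strands and is bound by proneural bHLH factors.
Actl6b promoter: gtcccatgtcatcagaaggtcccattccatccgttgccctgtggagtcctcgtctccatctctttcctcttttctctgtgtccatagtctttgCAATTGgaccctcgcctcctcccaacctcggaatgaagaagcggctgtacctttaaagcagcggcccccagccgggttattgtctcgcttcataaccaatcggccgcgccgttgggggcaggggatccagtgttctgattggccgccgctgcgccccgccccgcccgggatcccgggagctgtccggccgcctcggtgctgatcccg
Actl6a promoter: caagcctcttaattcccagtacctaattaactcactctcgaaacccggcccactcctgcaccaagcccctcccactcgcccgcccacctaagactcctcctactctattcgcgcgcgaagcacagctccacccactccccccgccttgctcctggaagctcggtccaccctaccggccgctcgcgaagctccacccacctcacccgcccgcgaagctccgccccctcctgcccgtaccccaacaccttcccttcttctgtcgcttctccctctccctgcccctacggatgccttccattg
The Actl6b window holds 1 E-box and the Actl6a window 0, while 72.3% of the 32851 promoters in the RefSeq table hold at least 1. Both are rich in CpG, with 23 CpG dinucleotides for Actl6b and 21 for Actl6a against a median of 7 over all promoters. All 9 genes matched a promoter by symbol.

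Cells were described by the neuronal transcription factor gene Neurod6 and the progenitor transcription factor gene Sox2, at a level of at least 10 CPM (counts scaled to 1000000 per cell). This gave 16 Neurod6 cells, 22 Sox2 cells and 27 cells with neither; no cell had both. All cells are labelled as neural progenitors, but the Neurod6 cells carried a median of 15.5 of 22 other neuronal genes at 10 CPM, against 5 in the Sox2 cells, and 4.5 of 22 other apical progenitor genes, against 11, so the progenitor label does not hold for all cells. Totals ran from 85338 to 32130629 reads per cell (median 14609426), and 3 cells had fewer than 1000000, of which 2 are Sox2 cells. The titles part the cells into sets of 31, 13 and 21 that the labels do not explain, with 11, 2 and 3 Neurod6 cells and 9, 6 and 7 Sox2 cells in sets 1, 2 and 3. Red cell genes varied with the title set. The summed level of the 4 measured erythroid genes reached 10 CPM in 13 of 31 cells of set 1. In sets 2 and 3 it did so in all 13 and all 21 cells. Its median was 36.7 CPM (0 to 1090) in Neurod6 cells and 462 CPM (0 to 5613) in Sox2 cells. As the classes lie unevenly over the sets, class and set cannot be told apart in these medians. The part of red cell genes in the results was not tested.

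Actl6b, the neuronal actin-related subunit, was the rarest of the members. A level of 10 CPM was reached in 5 of 65 cells (7.69%, exact 95% interval 2.54 to 17), and 15 cells had at least 1 read. The 5 cells had 93.2, 185, 199, 243 and 565 CPM. They lay in every title set (1, 2 and 2 cells of sets 1, 2 and 3), and 2 of them are Neurod6 cells and 3 have neither marker.

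The 5 Actl6b cells shared some neuronal genes and differed in others. All 5 had Dcx, a microtubule protein of migrating neurons, at 573 to 2915 CPM, and all 5 had Tbr1, which encodes a T-box factor of deep-layer neurons and reached 10 CPM in 19 of all 65 cells. They carried 13 to 19 of the 22 other neuronal genes, and none of the 5 carried the cell cycle genes at the bounds given further on. Neurod6 passed 10 CPM in 2 of them and was at most 1.15 CPM in the other 3, and Dpf1 ran from 0 to 188 CPM. Actl6b was at 10 CPM in 2 of 16 Neurod6 cells (12.5%, interval 1.55 to 38.3) and in 0 of 22 Sox2 cells, which allows a share of up to 13.6% by the limit of 3 counts and 15.4% by the exact interval, so the intervals overlap. The median was 0 CPM in both classes. Actl6b had 6100 reads (exact Poisson interval 5948 to 6255) over the 16 Neurod6 cells, nearly all of them in those 2 cells, and 3 reads (0.619 to 8.77) over the 22 Sox2 cells, with total reads of like depth (median 13317944 reads in Neurod6 cells and 16551627 in Sox2 cells). These intervals cover counting error only, and reads of this kit are not independent molecules.

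Dpf1, the neuronal PHD finger subunit and counterpart of Phf10, was found in more Neurod6 than Sox2 cells. It ran from 0 to 556 CPM with a median of 21.6 in the Neurod6 cells, and from 0 to 40.2 CPM with a median of 0.160 in the Sox2 cells. It reached 10 CPM in 10 of 16 Neurod6 cells (62.5%, interval 35.4 to 84.8) and in 4 of 22 Sox2 cells (18.2%, interval 5.19 to 40.3). The classes overlap, because 6 Neurod6 cells lay below 10 CPM. The mean was 97.7 ± 160 CPM in Neurod6 cells and 6.79 ± 11.3 CPM in Sox2 cells (SD across cells), a ratio of 14.4.

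On the log scale the Neurod6 minus Sox2 difference of mean log2(CPM + 1) was 2.43 for Dpf1, with 1.24, 3.66 and 2.37 within sets 1, 2 and 3. For Actl6b the same difference was 1.05, with 0.92, 0.11 and 2.18 within the sets. The value in set 2 came from levels below 10 CPM in both classes. A difference of at least 1 was counted as a call, and a stricter call also asked for 1 sign in every title set.

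**Figure D1:**
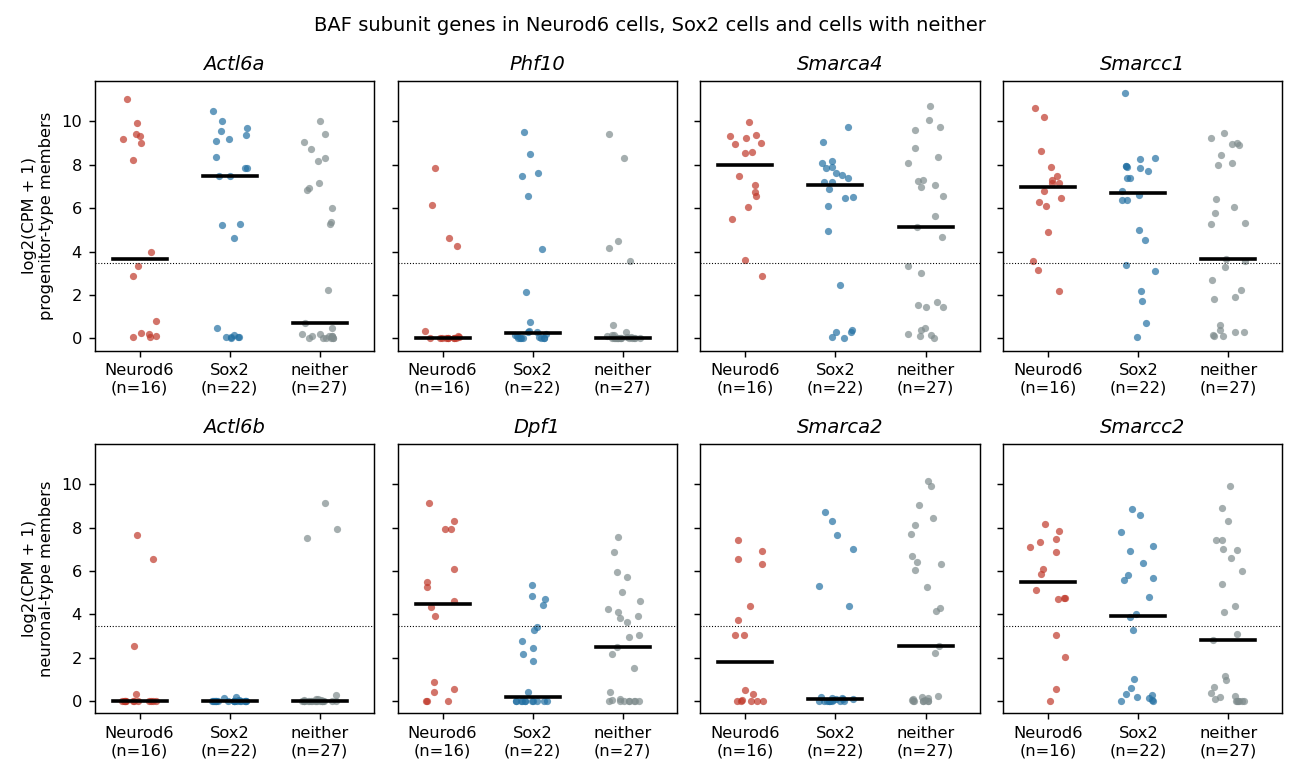
Level of each measured member in log2(CPM + 1) per cell, with progenitor-type members in the upper row and neuronal-type members in the lower. Each point is a cell in the Neurod6 (n = 16), Sox2 (n = 22) or remaining (n = 27) class, the black bar is the class median, and the dotted line is 10 CPM. Actl6b is near 0 in all Sox2 cells and above the line in only 2 of 16 Neurod6 cells, with a median of 0 in both. Dpf1 is above the line in 10 of 16 Neurod6 cells against 4 of 22 Sox2 cells, and the other members overlap widely.

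Smarcc2, a scaffold subunit, was at 10 CPM in 12 of 16 Neurod6 cells (75%, interval 47.6 to 92.7) and in 12 of 22 Sox2 cells (54.5%, interval 32.2 to 75.6). Its median was 45.4 CPM (0 to 284) in Neurod6 cells and 14.4 CPM (0 to 456) in Sox2 cells. The log2 difference was 1.41 but did not have the same sign in every set, at -0.52, 3.65 and 3.48 in sets 1, 2 and 3. The ratio of the mean CPM was 1.14.

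Smarca2, the alternative ATPase, was found across the classes, at 10 CPM in 6 of 16 Neurod6 cells and in 6 of 22 Sox2 cells, with medians of 3.88 CPM (0 to 171) and 0.0675 CPM (0 to 423). Its highest level, 1131 CPM, was in a cell with neither marker, and of those 27 cells 13 reached 10 CPM. Its log2 difference was 0.73, below the bound for a call.

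Actl6a, the progenitor actin-related subunit, was present in both classes. It was at 10 CPM or more in 8 of 16 Neurod6 cells (50%, interval 24.7 to 75.3) and in 15 of 22 Sox2 cells (68.2%, interval 45.1 to 86.1). Levels ran from 0.0406 to 2087 CPM with a median of 12.1 in Neurod6 cells, and from 0 to 1449 CPM with a median of 180 in Sox2 cells. The highest Actl6a level of all 65 cells was in a Neurod6 cell. The means were 365 ± 564 and 324 ± 409 CPM (SD across cells), a ratio of 1.12, while the log2 difference was -0.70, so that the mean and the median point opposite ways.

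The Actl6a contrast depended on the title set. Within set 1, 6 of 11 Neurod6 cells and 8 of 9 Sox2 cells reached 10 CPM, a log2 difference of -2.34. In sets 2 and 3 the differences were 0.09 and -0.40, with 2 and 3 Neurod6 cells. When cells were classed by Dcx without Pax6 against Pax6 without Dcx, the Actl6a difference was -2.09 and that of Phf10, the progenitor PHD finger subunit, also passed the bound.

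Phf10 was rare in both classes, at 10 CPM in 4 of 16 Neurod6 cells (25%) and in 6 of 22 Sox2 cells (27.3%), with a median of 0 CPM (0 to 234) in Neurod6 cells and 0.181 CPM (0 to 729) in Sox2 cells. Its log2 difference was -0.72, and 0.48 within set 2. The means were 21.7 ± 59.6 and 71.8 ± 173 CPM (SD across cells), each set by a few cells.

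Smarca4, the main ATPase of these complexes, was higher in Neurod6 cells than in Sox2 cells, although it was grouped with the progenitor-type members. Cells at 10 CPM were 15 of 16 Neurod6 cells (93.8%, interval 69.8 to 99.8) and 16 of 22 Sox2 cells (72.7%, interval 49.8 to 89.3). In set 1 the counts were 10 of 11 Neurod6 and 9 of 9 Sox2 cells. They were 2 of 2 and 5 of 6 in set 2, and 3 of 3 and 2 of 7 in set 3. The pooled shares of Smarca4 therefore mix class with title set. Levels ran from 6.40 to 1019 CPM with a median of 276 in Neurod6 cells, and from 0 to 848 CPM with a median of 133 in Sox2 cells. The log2 difference was 1.88, with 0.73, 1.02 and 2.88 in sets 1, 2 and 3, and the ratio of means was 2.01.

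Smarcc1, the other scaffold subunit, had at least 1 read in all 65 cells. It reached 10 CPM in 14 of 16 Neurod6 cells and in 16 of 22 Sox2 cells, with medians of 126 CPM (3.62 to 1560) and 104 CPM (0.0486 to 2517). In set 1 it did so in 11 of 11 Neurod6 and 9 of 9 Sox2 cells. The counts were 2 of 2 and 6 of 6 in set 2, and 1 of 3 and 1 of 7 in set 3. The pooled shares thus mix class with title set. The log2 difference of 0.77 stayed below the bound, with 0.23, 0.64 and 1.25 within sets 1, 2 and 3. Without title set 2 the difference was 1.34, which passes the bound, and without title set 3 it was -0.09.

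Over the 8 members, 4 were higher in Neurod6 cells by a difference of at least 1 (Actl6b, Dpf1, Smarcc2 and Smarca4), where 13.7% of the 10982 genes of mean CPM 1 or more were. With 1 sign in every title set there were 3 (Actl6b, Dpf1 and Smarca4), where 6.84% of all genes were. The Actl6b call rested on 2 of 16 Neurod6 cells at 10 CPM. Its sign in set 2 came from lower levels, with 0 of 2 Neurod6 and 0 of 6 Sox2 cells at 10 CPM. None of the 8 was lower by at least 1, where 17.8% of all genes were, and 11.3% with 1 sign in every set. The median difference was 1.23 over the 4 neuronal-type members, 0.03 over the 4 progenitor-type members and -0.13 over all genes tested. All 8 members passed the filter on mean CPM. Without title set 3, the members higher by at least 1 were 2 (Dpf1 and Smarca2) and 1 was lower (Actl6a); without title set 1, 1 was lower (Phf10). With a pseudocount of 10, 2 were higher (Dpf1 and Smarca4).

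Cells were also placed on a continuous axis, the mean z-score of 23 neuronal genes minus that of 23 apical progenitor genes, in which no member takes part. Across all 65 cells the Spearman rho of the level with this axis was 0.34 for Dpf1, 0.31 for Actl6b and 0.30 for Smarcc2, each positive in every title set. Smarca4 had 0.28, but -0.03 within set 2. Smarca2 had 0.11 and Smarcc1 0.04, the second negative within every set (-0.01, -0.15 and -0.12), and Actl6a and Phf10 had -0.14 and -0.18, both negative in every set. A rho of at least 0.3 with 1 sign in every set was reached by 3 of 8 members in the positive direction, where 3.84% of all genes did, and by 0 in the negative, where 7.28% did. Without title set 2 the positive calls were Actl6b and Smarcc2, and without title set 3 they were Actl6b and Dpf1. Cells share their library set and differ in depth, so these values describe the cells only.

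**Figure D2:**
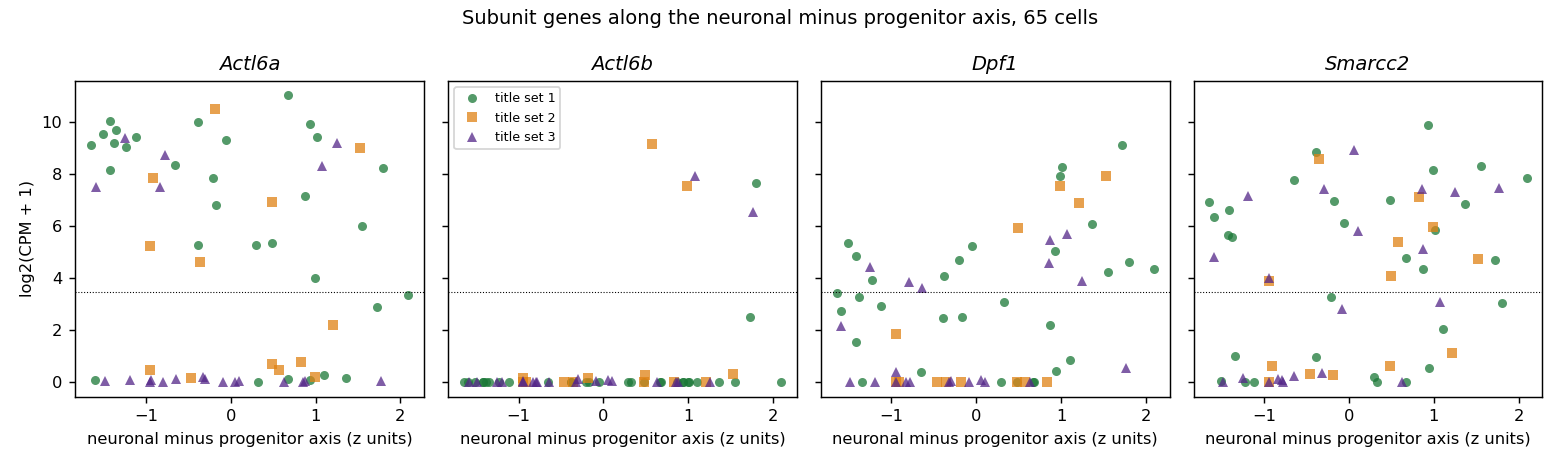
Level of 4 members in log2(CPM + 1) against the neuronal minus progenitor axis (z units, neuronal to the right) for 65 cells, with symbols by title set and the dotted line at 10 CPM. All 5 Actl6b cells above the line lie right of 0, Dpf1 levels above 6 log2 units lie at the neuronal end, and Actl6a is high or near 0 at both ends.

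The paralogs were next counted together within cells. Actl6a and Actl6b were both at 10 CPM in 2 cells, which is 40% of the 5 cells with Actl6b and 5.71% of the 35 cells with Actl6a; 27 cells had neither. In the 2 cells with both, Actl6b had 199 and 243 CPM beside 302 and 316 CPM of Actl6a. In the other 3 Actl6b cells, Actl6a lay at 0.0470, 0.151 and 0.379 CPM. Dpf1 and Phf10 were together in 5 cells, 20% of the 25 with Dpf1 and 33.3% of the 15 with Phf10.

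The ATPase and scaffold paralogs are each common genes. Smarca2 and Smarca4 were both at 10 CPM in 18 cells, 72% of the 25 with Smarca2 and 39.1% of the 46 with Smarca4. Smarcc2 and Smarcc1 were together in 26 cells, 72.2% of the 36 with Smarcc2 and 57.8% of the 45 with Smarcc1. Over all 65 cells, Smarca4 reached 10 CPM in 70.8%, Smarcc1 in 69.2%, Actl6a in 53.8% and Phf10 in 23.1%, so that cells with Smarca2 or Smarcc2 had the partner about as often as all cells did.

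Counted per cell, Neurod6 cells had a mean of 1.88 of the 4 measured neuronal-type members at 10 CPM (0 to 3) and Sox2 cells 1 (0 to 2). For the 4 progenitor-type members the means were 2.56 (1 to 4) and 2.41 (0 to 4). More progenitor-type than neuronal-type members were present in 10 of 16 Neurod6 cells and in 18 of 22 Sox2 cells. In 2 of the 65 cells none of the 8 members reached 10 CPM.

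**Figure D3:**
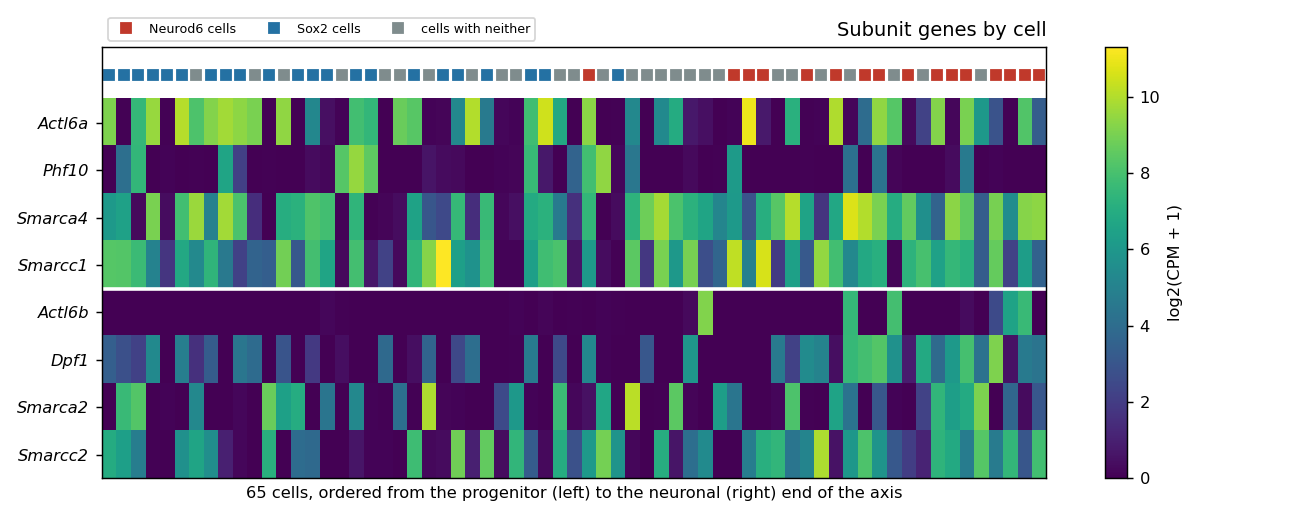
Levels of the 8 measured members in log2(CPM + 1) in each of 65 cells, ordered from the progenitor to the neuronal end of the axis, with progenitor-type members above the white line and neuronal-type members beneath it. Squares on top mark Neurod6, Sox2 and remaining cells; the 5 cells with high Actl6b sit in the neuronal part, whereas Smarca4 and Smarcc1 are spread along the whole axis.

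Mean levels of different genes were compared per kilobase of exon, with GENCODE M21 exon lengths, which are not those of the authors' counting. The shares of cells at 10 CPM and the CPM of paralogs given above are not corrected for length. Exon lengths ran from 1592 bases (Actl6b) to 7302 bases (Smarca2). On this scale Actl6a averaged 128 CPM per kb (SD across cells 203), Smarca4 36.7 (SD 51), Smarcc1 32 (SD 61.5), Phf10 27.5 (SD 83.3), Smarcc2 16.7 (SD 30.5), Dpf1 13.8 (SD 35.4), Actl6b 12.5 (SD 51.8) and Smarca2 11.6 (SD 28). Each spread exceeds its mean, and the neighbours in this order below Actl6a differ by less than their spread.

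The members also varied with the title set. At 10 CPM, Smarcc1 was found in 29 cells of set 1 (n = 31), 12 of set 2 (n = 13) and 4 of set 3 (n = 21), with medians of 112, 234 and 2.77 CPM. Smarca4 did so in 26, 12 and 8 cells and Actl6a in 23, 6 and 6, with set 3 medians of 0.383 and 0.0557 CPM. Smarca2 went the other way in share, with 10, 5 and 10 cells. Set 3 was the deepest, with a median of 22483962 reads, against 14032041 in set 1 and 8127759 in set 2, yet a median of 2452 genes per cell reached 10 CPM there, against 3121 and 2551 in sets 1 and 2. The rho of level with total reads was -0.40 for Smarcc1 and -0.33 for Smarca4, and between -0.18 and 0.07 for the other members. What the sets stand for is not given, so that set, depth and cells cannot be told apart.

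Actl6a was more frequent in cells carrying cell cycle genes. Cells were counted as such with at least 7 of 22 G1/S genes or 8 of 24 G2/M genes at 10 CPM, which held for 34 cells, among them 3 of 16 Neurod6 cells and 20 of 22 Sox2 cells. With only 2 Sox2 cells outside, a contrast within Sox2 cells had little to rest on, and all 65 cells were used instead, a choice made after the values were seen. Actl6a reached 10 CPM in 25 of 34 cells with cycle genes (73.5%) and in 10 of 31 others (32.3%). The counts were 17 of 18 against 6 of 13 in set 1, 4 of 5 against 2 of 8 in set 2 and 4 of 11 against 2 of 10 in set 3.

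Actl6b went the other way, in 0 of 34 cells with cycle genes and 5 of 31 others. All 3 Neurod6 cells with cycle genes had Actl6a, and 5 of the other 13 Neurod6 cells did. Among the 27 cells with neither marker, Actl6a was in 7 of 11 with cycle genes and in 5 of 16 without. Phf10 was in 10 of 34 and 5 of 31, and Dpf1 in 10 of 34 and 15 of 31. The other members lay between 11 and 25 of 34 cells with cycle genes and between 14 and 24 of 31 others.

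Cells with at least 3 of 10 interneuron and ventral forebrain genes at 10 CPM numbered 10, of which 3 are Sox2 cells and 7 have neither marker. Some of these cells also carried cell cycle genes at the bounds given above. Among them were a Sox2 cell with 23 G2/M genes and a Sox2 cell with 18 G1/S genes at 10 CPM. The bound thus does not mark interneurons alone, and the counts describe these 10 cells only. Actl6b reached 10 CPM in 0 of these 10, with a highest level of 0.112 CPM. Dpf1 did so in 4 (0 to 31.7 CPM), Actl6a in 6 (median 81.0 CPM), and Smarca4 and Smarcc1 in 7 each.

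Other BAF genes were found on both sides. Of 21 measured further subunit genes, 6 were higher in Neurod6 cells by at least 1 (background 13.7%) and 4 were lower (17.8%). With 1 sign in every title set, 4 were higher (background 6.84%) and 2 lower (11.3%), so that the lower counts are near the share over all genes. Their median difference was 0.33. Bcl11b and Bcl11a, zinc finger proteins of cortical projection neurons that also copurify with BAF, had the largest positive differences.

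Bcl11b had a median of 141 CPM in Neurod6 cells and 0.382 CPM in Sox2 cells, a log2 difference of 3.87, with 12 of 16 and 5 of 22 cells at 10 CPM. Bcl11a had medians of 690 and 86.7 CPM and a difference of 3.16. Smarcd1, a core subunit, differed by 2.23 (medians 48.8 and 3.14 CPM). Arid2, a subunit of the PBAF form, differed by 1.92, with 0.83, 7.14 and 2.81 in sets 1, 2 and 3.

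Ss18 and Dpf2, a subunit of the progenitor form and a widely expressed relative of Dpf1, lay on the Sox2 side. Ss18 reached 10 CPM in 3 of 16 Neurod6 cells and 9 of 22 Sox2 cells, a difference of -1.82 with 1 sign in every set. Its neuronal counterpart Ss18l1 was in 3 and 4 cells, a difference of 0.51. Dpf2 was in 4 and 12 cells, a difference of -2.09, but 2.01 within set 3. Smarcd3 was in 0 of 16 and 4 of 22 cells (difference -1.22). Pbrm1, the PBAF bromodomain subunit, was in 12 and 19 cells, a pooled difference of -1.18. The Pbrm1 difference was negative within set 1 only, and was 1.02 and 0.51 within sets 2 and 3. Smarcb1 and Arid1a passed the bound pooled (1.48 and 1.37), but Smarcb1 was at -0.98 within set 1 and Arid1a at -2.63 within set 2. Smarce1, which reached 10 CPM in 63 of 65 cells, did not pass (0.54).

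**Figure D4:**
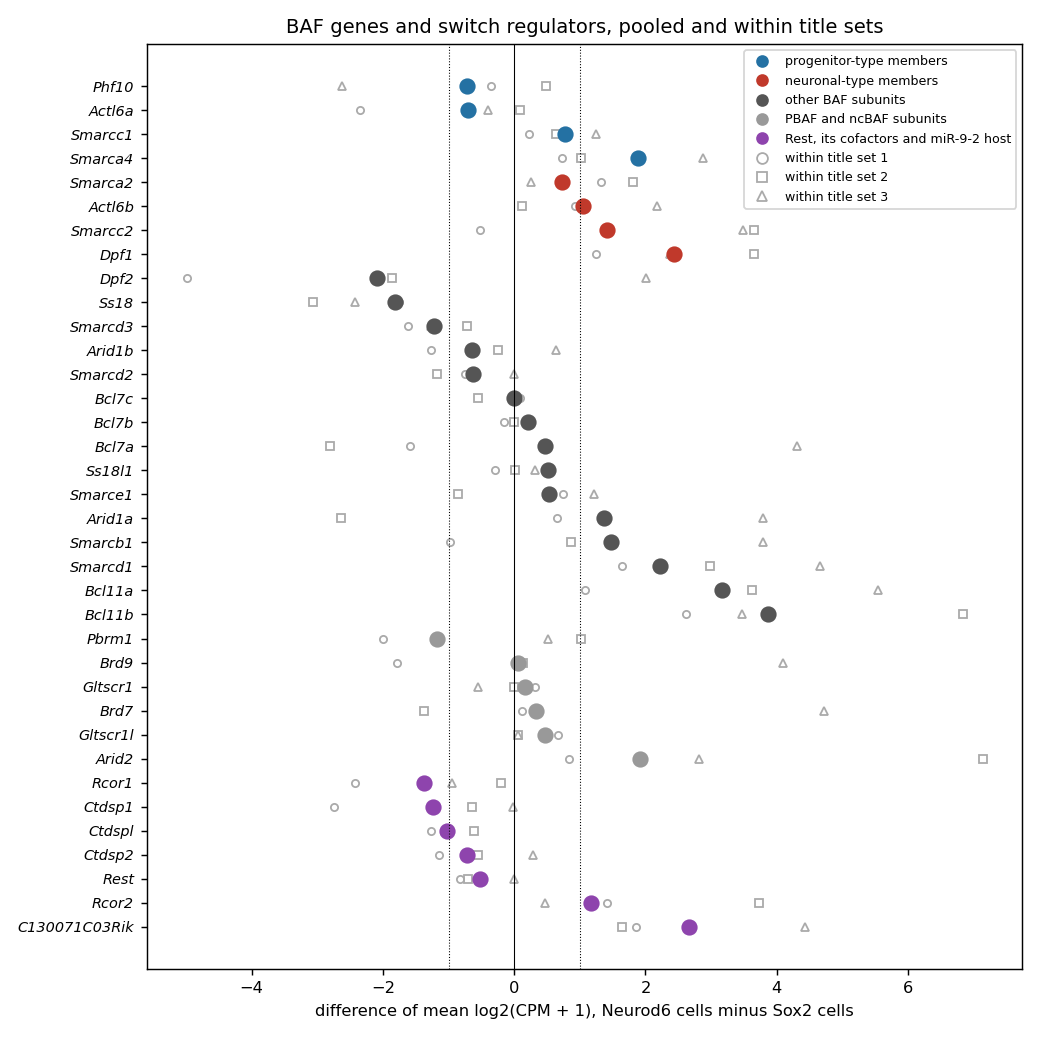
Difference of mean log2(CPM + 1), Neurod6 cells minus Sox2 cells, for the 8 members and the 21 further BAF genes. Also drawn are 7 genes: Rest, genes that act with it and a Mir9-2 host gene. Filled points are pooled over all cells, open symbols are within title sets, and dotted lines mark -1 and 1. Dpf1, Actl6b and Smarca4 lie at or beyond 1 pooled and above 0 in each set, Actl6b in set 2 only by levels below 10 CPM.

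Rest, genes that act with it and a Mir9-2 host gene numbered 7. Of these, 2 were higher and 3 lower by at least 1, where 13.7% and 17.8% of all genes were. All 5 had 1 sign in every set, where 6.84% of all genes were higher and 11.3% lower. The phosphatase gene Ctdsp1 was at only -0.02 within set 3. C130071C03Rik is a noncoding RNA gene whose annotated span (chr13:83721381-83741308, RefSeq GRCm38.p6) contains the Mir9-2 copy of miR-9-3p printed above. It reached 10 CPM in 11 of 16 Neurod6 cells and 7 of 22 Sox2 cells, with medians of 131 and 0.105 CPM and a log2 difference of 2.66. Of the 27 cells with neither marker, 14 reached 10 CPM. Its rho with the axis over all cells was only 0.10, with 0.10, 0.12 and 0.04 within sets 1, 2 and 3. The microRNAs themselves were not measured. Actl6a was at 10 CPM in 18 of the 32 cells with the host transcript and in 17 of the 33 without it.

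Rest was rare, at 10 CPM in 2 of 65 cells with a highest level of 106 CPM in a cell with neither marker. At this level it was in 0 of 16 Neurod6 cells and 1 of 22 Sox2 cells, with a log2 difference of -0.53. Its corepressor Rcor1 (0 and 4 cells, difference -1.37) and the phosphatase genes Ctdsp1 (0 and 5 cells, -1.24) and Ctdspl (0 and 3 cells, -1.02), which act with Rest, were lower in Neurod6 cells, while Rcor2 was higher (8 and 5 cells, 1.18). Ctdsp2 did not pass (-0.72).

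Among themselves the members were only weakly related. Of 28 pairs, 16 had a positive Spearman rho over the 65 cells, from -0.24 (Actl6b with Smarcc1) to 0.35 (Dpf1 with Smarca4, 0.11, 0.42 and 0.47 within sets 1, 2 and 3). Actl6a and Actl6b had -0.16. In counts with so many values near 0, such weak values are no finding.

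Among 8377 genes of mean CPM 10 or more, the 5 whose levels over the 65 cells were most like Actl6a were Rae1 (rho = 0.52), Fasn (0.51), the serine synthesis gene Phgdh (0.50), the histone variant gene H2afy2 (0.50) and Hnrnpl (0.49). Within sets 1, 2 and 3, Fasn had 0.35, 0.63 and 0.44 and Phgdh 0.51, 0.24 and 0.30. Rae1 had 0.53, 0.15 and 0.33, H2afy2 0.46, 0.29 and 0.04, and Hnrnpl 0.52, 0.25 and -0.005, so the pooled values partly reflect the sets. Rae1 reached 10 CPM in 18 cells, 16 of them with Actl6a. Phgdh is 1 of the genes of the axis. For Actl6b they were Ccno (0.66), Ephx2 (0.585), the adhesion gene Cadm3 (0.55), Ndrg4 (0.55) and Tmcc3 (0.53). These rest on few cells: Ccno reached 10 CPM in 3 cells, 1 of them with Actl6b, and Cadm3 in 4 cells, 3 of them with Actl6b.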

How the data were processed

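Per the labels' protocols, single cells were lysed directly and full-length cDNA libraries were made without molecular identifiers. The authors deposited raw read counts, whole numbers for every gene in each cell, without normalization. Per the submitters' processing notes, TopHat2, HTSeq and mm9 were used, with no versions or roles named. Which gene annotation was counted on is not stated there. Strand is not kept, and paralog reads were not told apart beyond the authors' counting.

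CPM were computed with the cell total as divisor, and log2 was taken after adding 1 (Python 3.11.15, pandas 2.3.3, scipy 1.17.1). Cells at 10 CPM were counted as having a gene, with exact Clopper-Pearson 95% intervals. Genes needed a mean of 1 CPM for the comparisons across all genes. No cells were left out, no doublet caller was run, and no 2 cells held identical values. The functions were tested on simulated data. Members and lists were chosen with earlier results of these data known. Beyond the members, other BAF genes and the genes around Rest and Mir9-2 were named if called by either rule. Added were at most 4 not called, and the 5 genes most like Actl6a and Actl6b. Alternatives changed the pseudocount, filter, class genes and level, axis list, depth and title sets; scaling used scran 1.30.0 (R 4.3.3).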

Additional observations from a re-analysis of the deposited data

How the results depend on the processing

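Of the 4 members higher in Neurod6 cells, 2 remained with a pseudocount of 10 (Dpf1 and Smarca4) and 2 were counted without title set 3 (Dpf1 and Smarca2). The count lower in Neurod6 cells, 0 as reported, was 2 with Dcx and Pax6 classes (Actl6a and Phf10), 1 without title set 1 (Phf10) and 1 without title set 3 (Actl6a). The 3 positive rho calls became 1 with the progenitor list alone (Actl6b). With the neuronal list alone they were Dpf1, Smarca4 and Smarcc2, with a rho of 0.46 for Smarca4 and 0.24 for Actl6b, which was not called. Smarca4 was also called with scran scaling (0.31), without cells under 1000000 reads (0.35) and with cells thinned to 1000000 reads (0.33). Negative rho calls, 0 as reported, were 1 without title set 1 (Phf10), 1 without title set 3 (Actl6a) and 1 with the progenitor list alone (Actl6a). Cells with both genes of a pair were counted as 3 for Dpf1 with Phf10 at 20 CPM. At 1 read they were 13 for Actl6b with Actl6a, 43 for Smarca2 with Smarca4, 56 for Smarcc2 with Smarcc1 and 20 for Dpf1 with Phf10. The cause was not tested. Under the alternatives run, the Dpf1 difference ranged from 1.13 to 2.92, that of Actl6b from 0.52 to 1.35 and that of Actl6a from -2.09 to -0.28. With title sets weighted equally, chosen after seeing the data, the differences of Smarca2 and Smarcc2 were 1.13 and 2.20. The Smarcc2 difference was between 0.69 and 3.6, and it was below 1 with a pseudocount of 10 (0.69), without title set 2 (0.76) and without title set 3 (0.81). That of Actl6b was below 1 with a pseudocount of 10 (0.52), with Dcx and Pax6 classes (0.98) and without title set 3 (0.79), and that of Smarca4 without title set 3 (0.89). The Smarcc1 difference was 1.34 without title set 2, above the bound, and -0.09 without title set 3. The median difference of all genes was -0.12 with scran scaling and -0.13 with cell totals. No paired analysis was possible because the cells form 1 group. The small number of cells limits what can be said of Actl6b, at 10 CPM in 5. With cells thinned to 1000000 reads its difference was 1.05.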
